A study of Mus musculus with 33 samples.

Results

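The 10 genes described here belong to the smooth muscle contractile apparatus and its transcriptional control, and they were followed through Sox2, Klf4 and Myc (SKM) reprogramming of mouse cells. They were the listed gene symbols Acta2, Tagln, Cnn1, Myl9, Tpm1, Tpm2, Actg2, Myh11, Myocd and Srf, taken from the symbol column of the deposited expression tables, which held 37620 genes in all. The 10 genes were found in both tables. RNA-seq covered 22 of the 33 samples of the series. The cells were secondary MEFs (mouse embryonic fibroblasts that carry the SKM factors) and secondary NPCs (neural progenitor cells that carry them). Both were sampled on days 0, 2, 4, 8 and 12, with day 0 as the starting cells. Reprogramming was in mouse ES medium with doxycycline, the drug that switches the factors on. Each day had 2 libraries per origin. The MEF libraries of days 4, 8 and 12 and the NPC libraries of days 8 and 12 carry a GFP label, so day and GFP label change together in both origins. The pluripotent lines R1 ESC (embryonic stem cells) and SKM iPSC (an induced pluripotent line from this factor set) had 1 library each. The labels do not say which libraries came from separate cultures or animals, so the p-values measure only the spread between these libraries, which may be technical.

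Smooth muscle alpha-actin (Acta2) and gamma-actin (Actg2) form the thin filaments of smooth muscle, and smooth muscle myosin heavy chain (Myh11) with the regulatory light chain Myl9 forms the motor that pulls on them. Calponin (Cnn1), transgelin (Tagln) and the tropomyosins Tpm1 and Tpm2 bind the actin filament. Serum response factor (Srf) binds the CArG box, a short A/T-rich sequence flanked by CC and GG, and works with partners: myocardin (Myocd), which marks smooth and cardiac muscle, and the myocardin-related factors Mkl1 and Mkl2, which unpolymerised actin keeps out of the nucleus. Cultured fibroblasts, which build stress fibres on stiff plastic, express many of these genes without being muscle. In bulk libraries fewer cells that express a gene and less RNA per cell cannot be told apart.

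Promoter sequence was available from RefSeq (GRCm38.p6) for 6 of the 10 genes: Acta2, Cnn1, Myl9, Tpm1, Tpm2 and Srf. The 250 bases before the transcription start were searched on both strands for the CArG box and for TATAAA. Srf held 2 CArG boxes, 82 to 73 and 62 to 53 bases before its start, and 1 TATAAA, on the strand opposite to the gene. Myl9 held 1 CArG box, 161 to 152 bases before its start. A looser form with 1 G or C in its A/T centre, a choice made after the sequences were seen, was found 99 to 90 bases before the start of Myl9, and 84 to 75 and 34 to 25 bases before that of Acta2. Cnn1, Tpm1 and Tpm2 held neither form in these windows. Among all 32851 promoter windows of this length, 1.47% held a CArG box, against 2 of these 6, and 7.24% the looser form, also against 2 of 6. TATAAA was in 12.4% of windows. The promoters of Acta2, Myl9 and Srf are shown for their boxes, and that of Tpm2 for the contrast in its expression given further on. Each is the 250 bases up to the start, 5' to 3' along the gene. Capitals mark CArG boxes of either form. Acta2 lies at chr19:34255374-34255623 (minus strand), Myl9 at chr2:156775214-156775463 (plus strand), Srf at chr17:46556163-46556412 (minus strand) and Tpm2 at chr4:43523555-43523804 (minus strand).
Acta2: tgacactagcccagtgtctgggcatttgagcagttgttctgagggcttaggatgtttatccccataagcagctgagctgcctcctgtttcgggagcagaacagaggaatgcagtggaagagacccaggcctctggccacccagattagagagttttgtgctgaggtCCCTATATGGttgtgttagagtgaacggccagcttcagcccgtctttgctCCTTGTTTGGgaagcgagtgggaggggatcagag
Myl9: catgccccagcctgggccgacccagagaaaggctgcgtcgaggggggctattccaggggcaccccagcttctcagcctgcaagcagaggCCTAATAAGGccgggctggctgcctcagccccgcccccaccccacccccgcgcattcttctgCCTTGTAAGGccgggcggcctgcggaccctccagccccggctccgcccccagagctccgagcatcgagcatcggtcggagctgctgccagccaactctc
Srf: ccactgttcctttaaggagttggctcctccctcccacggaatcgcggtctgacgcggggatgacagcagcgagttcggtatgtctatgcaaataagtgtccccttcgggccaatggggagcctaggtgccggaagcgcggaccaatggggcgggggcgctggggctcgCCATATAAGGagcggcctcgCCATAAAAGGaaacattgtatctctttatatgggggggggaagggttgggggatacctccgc
Tpm2: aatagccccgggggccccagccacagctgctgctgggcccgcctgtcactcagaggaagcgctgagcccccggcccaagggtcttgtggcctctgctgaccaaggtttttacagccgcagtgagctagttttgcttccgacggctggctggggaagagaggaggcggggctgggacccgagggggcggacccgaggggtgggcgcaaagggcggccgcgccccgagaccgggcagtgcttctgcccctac

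Libraries held 15902838 to 20102260 counts. The 10 genes took 0.686% and 1.61% of all counts in the day 0 MEF libraries and 0.110% and 0.127% in the day 0 NPC libraries, but 0.0156% in R1 ESC and 0.0117% in SKM iPSC. After day 0 their share lay between 0.0291% and 0.0909% in every library of both origins. Levels are given as CPM, counts per 1000000 with library sizes scaled by TMM over the 22 libraries, and are not divided by gene length, so they compare libraries and not genes. The 5 neural progenitor markers summed to 130 and 343 CPM in the day 0 MEF libraries and 3029 and 2989 CPM in the day 0 NPC libraries, and the 8 fibroblast markers to 36341 and 16204 CPM and to 511 and 379 CPM in the same libraries. Several libraries of 1 group stood apart. The second day 0 MEF library held more of 9 of the 10 genes than the first, by a median of 3.20 times, but less of 8 of 8 fibroblast marker genes (collagen Col3a1 had 1552 CPM in the second and 8596 CPM in the first). The NPC day 4 columns are headed "feeder" (replicate 1) and "nofeeder" (replicate 2), words the labels do not use. Col3a1 had 1057 CPM in the feeder library and 3.46 CPM in the nofeeder one, the widest ratio of the 8 fibroblast markers.

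**Figure D1:**
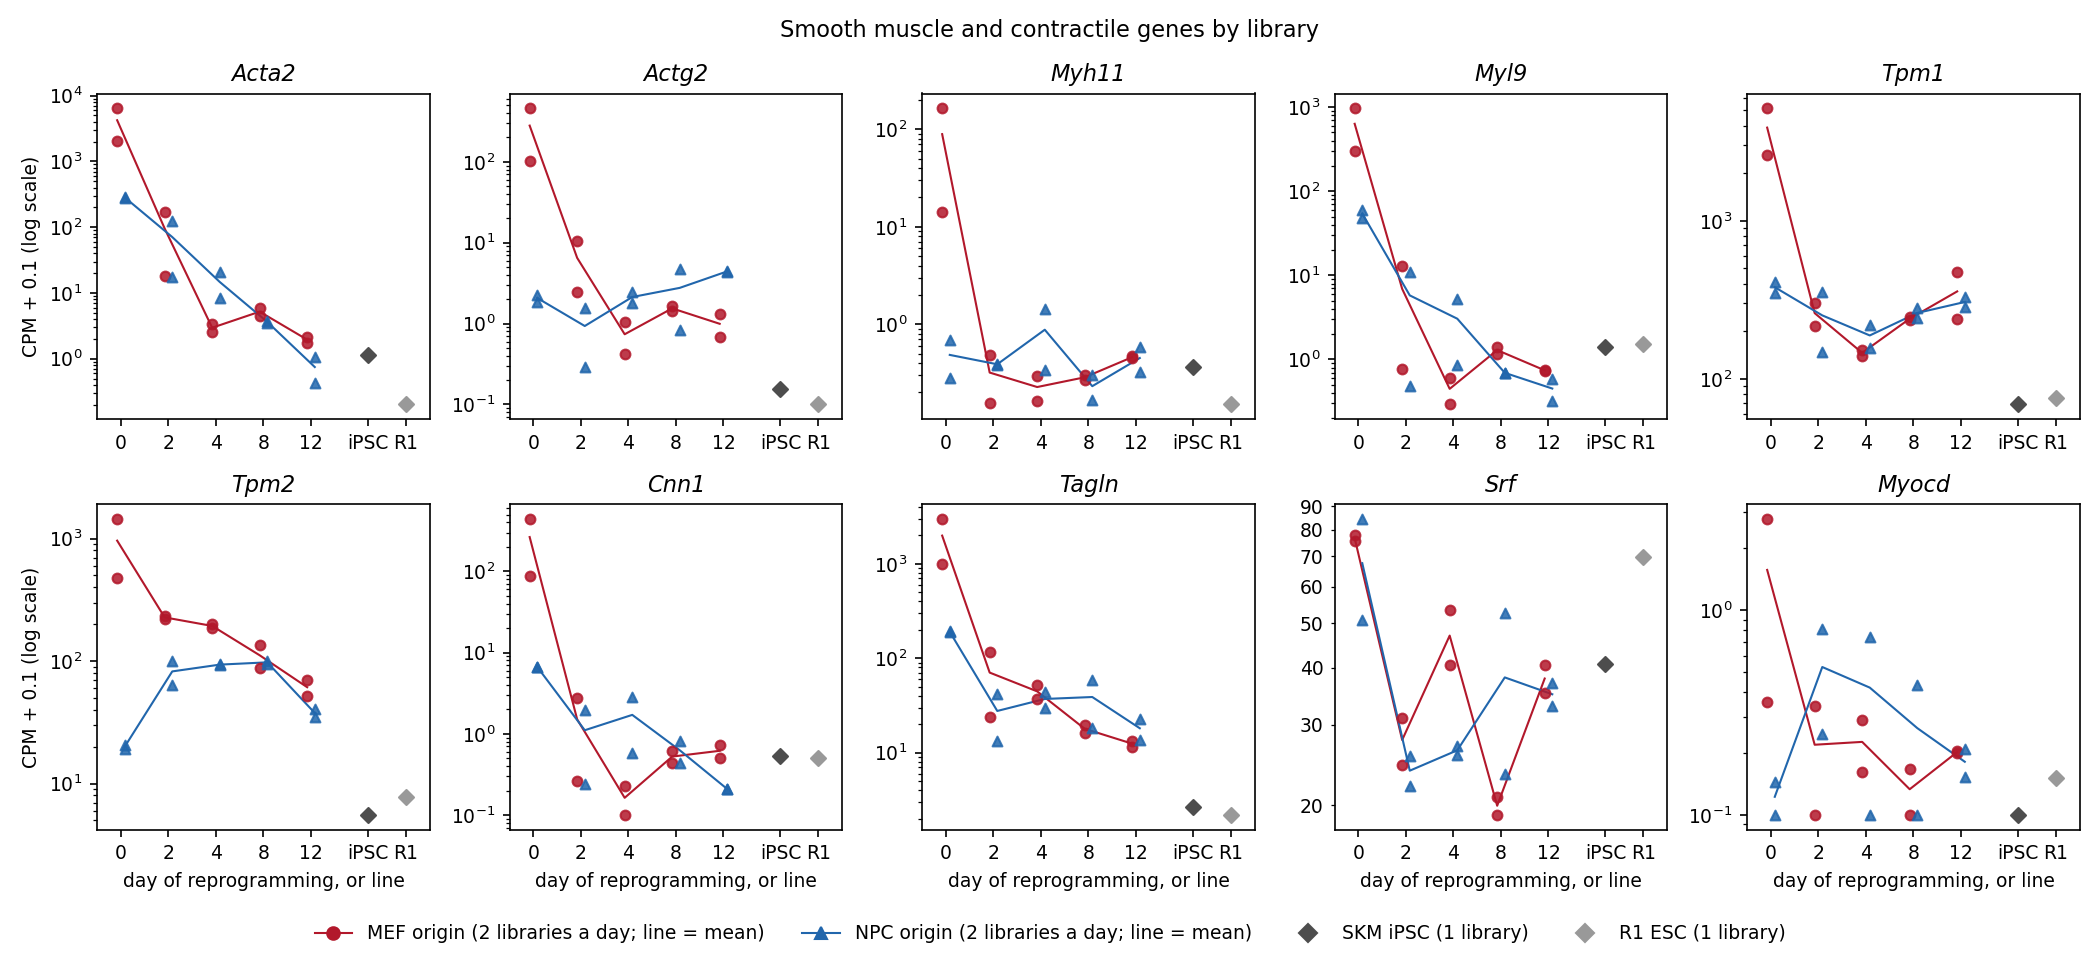
CPM plus 0.1 on a log axis for the 10 genes by day, with 1 panel per gene. Red circles are MEF libraries, blue triangles NPC libraries and diamonds the lines. The MEF circles of Acta2, Cnn1, Myl9, Actg2 and Myh11 drop between days 0 and 2 and stay low, while the NPC triangles of Tpm2 lie above their day 0 level on each later day.

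The MEF starting cells expressed the 8 contractile and actin-binding genes of the set, and by day 2, before any GFP label, 9 genes had fallen. Acta2 was at 2.25% of its day 0 mean, Tagln at 3.53%, Tpm1 at 6.70% and Tpm2 at 23.6%, while Srf itself kept 36.2%. Of the 9 genes tested, 9 were called lower on day 2 (edgeR quasi-likelihood test, Benjamini-Hochberg adjusted p under 0.05). Among all 15246 genes tested, 23.8% were called lower and 20.6% higher. The median log2 fold change was -5.59 for the 9 genes and -0.03 for all genes. Myh11 passed the filter on low counts through the day 0 MEF libraries alone and Cnn1 through those and 1 other library, so for these genes the filter itself favoured a fall.

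Acta2 had 2040 and 6428 CPM on day 0 in MEF cells, 18.2 and 173 CPM on day 2, 3.27 and 2.45 CPM on day 4, 5.75 and 4.44 CPM on day 8, and 1.63 and 2.06 CPM on day 12. Both day 0 libraries lay above every later one. The replicates of day 2 were 9.49 times apart, more than on any later MEF day. The log2 fold change was -5.62 ± 0.97 (SE, adjusted p = 0.00152) on day 2 and -11.22 ± 1.24 (adjusted p = 9.55e-05) on day 12. With single libraries left out the day 2 value ran between -8.01, without the second day 2 library, and -4.58, without the second day 0 library.

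Actg2 had 102 and 458 CPM on day 0, 2.37 and 10.4 CPM on day 2, and 0.315 to 1.54 CPM on days 4 to 12. Its log2 fold change was -5.59 ± 0.88 (SE, adjusted p = 0.000984) on day 2. Reads of Acta2, Actg2 and the skeletal actin Acta1 come from near-identical coding sequences, and how the authors' counting split them is not given, so the level of each is uncertain to that extent.

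Myh11, the motor protein most restricted to smooth muscle, had 14.1 and 164 CPM on day 0. On day 2 it had 0.0551 and 0.385 CPM, and on day 12 0.369 and 0.352 CPM, a few reads per library. The day 0 replicates were 11.6 times apart, the widest gap among the 10 genes, yet both lay above all later libraries. The log2 fold change was -8.71 ± 1.24 (SE, adjusted p = 0.000593) on day 2. Without either day 0 library the gene no longer passed the filter and was not tested. Myl9, the light chain, had 298 and 967 CPM on day 0, 0.662 and 12.9 CPM on day 2, and between 0.192 and 1.31 CPM on days 4 to 12. It fell by 6.67 ± 1.10 on the log2 scale on day 2 (SE, adjusted p = 0.00122), and its day 12 value was -9.99 ± 1.32 (adjusted p = 0.000244).

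Among the actin-binding members, Cnn1 had 86.3 and 442 CPM on day 0, 0.165 and 2.65 CPM on day 2, and 0 to 0.633 CPM on days 4 to 12. Its fall on day 2 was -7.66 ± 1.10 (SE, log2, adjusted p = 0.000622). Tagln had 989 and 2996 CPM on day 0, 23.8 and 117 CPM on day 2, 52.2 and 36.8 CPM on day 4, 19.4 and 16.2 CPM on day 8, and 13.3 and 11.4 CPM on day 12. Its day 4 libraries lay inside the range of its day 2 libraries, so no order between those days was seen. Tagln fell by 4.97 ± 0.77 on the log2 scale on day 2 (SE, adjusted p = 0.000865) and its day 12 value was -7.40 ± 0.86 (adjusted p = 0.000125). Calponin thus came down to 0 to 12 counts per library on days 4 to 12, while transgelin remained at 11.4 CPM or more in every MEF library.

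The tropomyosins had smaller log2 changes on day 2. Tpm1 had 2626 and 5154 CPM on day 0, 217 and 304 CPM on day 2, 139 and 153 CPM on day 4, 235 and 245 CPM on day 8, and 238 and 477 CPM on day 12. Its later days overlapped except for day 4, which was below all others. The log2 fold change of Tpm1 was -4.05 ± 0.44 (SE, adjusted p = 0.000178) on day 2 and -3.51 ± 0.43 (adjusted p = 0.000166) on day 12. Tpm2 had 476 and 1447 CPM on day 0, 219 and 235 CPM on day 2, 199.6 and 187 CPM on day 4, 136 and 87.1 CPM on day 8, and 52.0 and 70.1 CPM on day 12. In contrast to Tpm1, each later day of Tpm2 lay below the one before it with no overlap. Tpm2 fell by 2.23 ± 0.46 on the log2 scale on day 2 (SE, adjusted p = 0.00354) and by 4.04 ± 0.49 on day 12 (adjusted p = 0.000162).

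Srf had the smallest log2 change of the 9 genes on days 2, 4, 8 and 12. It had 77.8 and 75.4 CPM on day 0 in MEF cells, 30.9 and 24.5 CPM on day 2, 53.3 and 40.5 CPM on day 4, 20.8 and 19.0 CPM on day 8, and 35.1 and 40.4 CPM on day 12. Both day 0 libraries lay above every later one, and the later days did not follow one direction. The log2 fold change was -1.61 ± 0.25 (SE, adjusted p = 0.00083) on day 2, -2.07 on day 8 (adjusted p = 0.000122) and -1.09 ± 0.24 (adjusted p = 0.00458) on day 12. On day 4 it was -0.82 (adjusted p = 0.0153), a call lost without the second of the day 4 libraries, where it was -0.61 (adjusted p = 0.123). Myocd, Srf's muscle partner, had 5 and 47 counts on day 0 and 0 to 5 counts in each later MEF library. It passed the filter in no fit and was not tested.

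Counts of called genes were the same on the other MEF days: 9 of 9 tested were lower on day 4, where 31.1% of all genes were called lower, 9 of 9 on day 8 (28.9% of all genes) and 9 of 9 on day 12 (24.6%, with 26.3% called higher). Their median log2 fold changes were -8.87, -7.72 and -7.99 on days 4, 8 and 12. Myh11 and Cnn1 were counted on each of these days, and the filter favoured their fall as it did on day 2. Over the same comparison on day 2, 7 of the 8 fibroblast marker genes were called lower, beside 23.8% of all genes. The summed level of the 8 was 858 and 923 CPM on day 2, against 36341 and 16204 CPM on day 0. Pericyte markers (contractile cells around small vessels) summed to 91.8 and 38.7 CPM on day 2, against 537 and 414 CPM on day 0. Of the 7 tested, 6 fell. Pdgfrb (215 and 190 CPM) was the largest part of the day 0 sums, and Rgs5 had 1.83 and 8.01 CPM. These sums thus do not by themselves mark pericytes. The 5 macrophage markers summed to 19.8 and 10.4 CPM on day 2, against 176 and 355 CPM on day 0. The part of these other markers in the fall of the contractile genes was not tested. The 8 listed skeletal and cardiac muscle markers summed to 3.43 to 54.5 CPM over the 22 libraries. That list leaves out the skeletal actin Acta1, at 10.99 and 247 CPM in the day 0 MEF libraries, and the atrial light chain Myl7, which reached 209 CPM in the first NPC library of day 8.

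**Figure D2:**
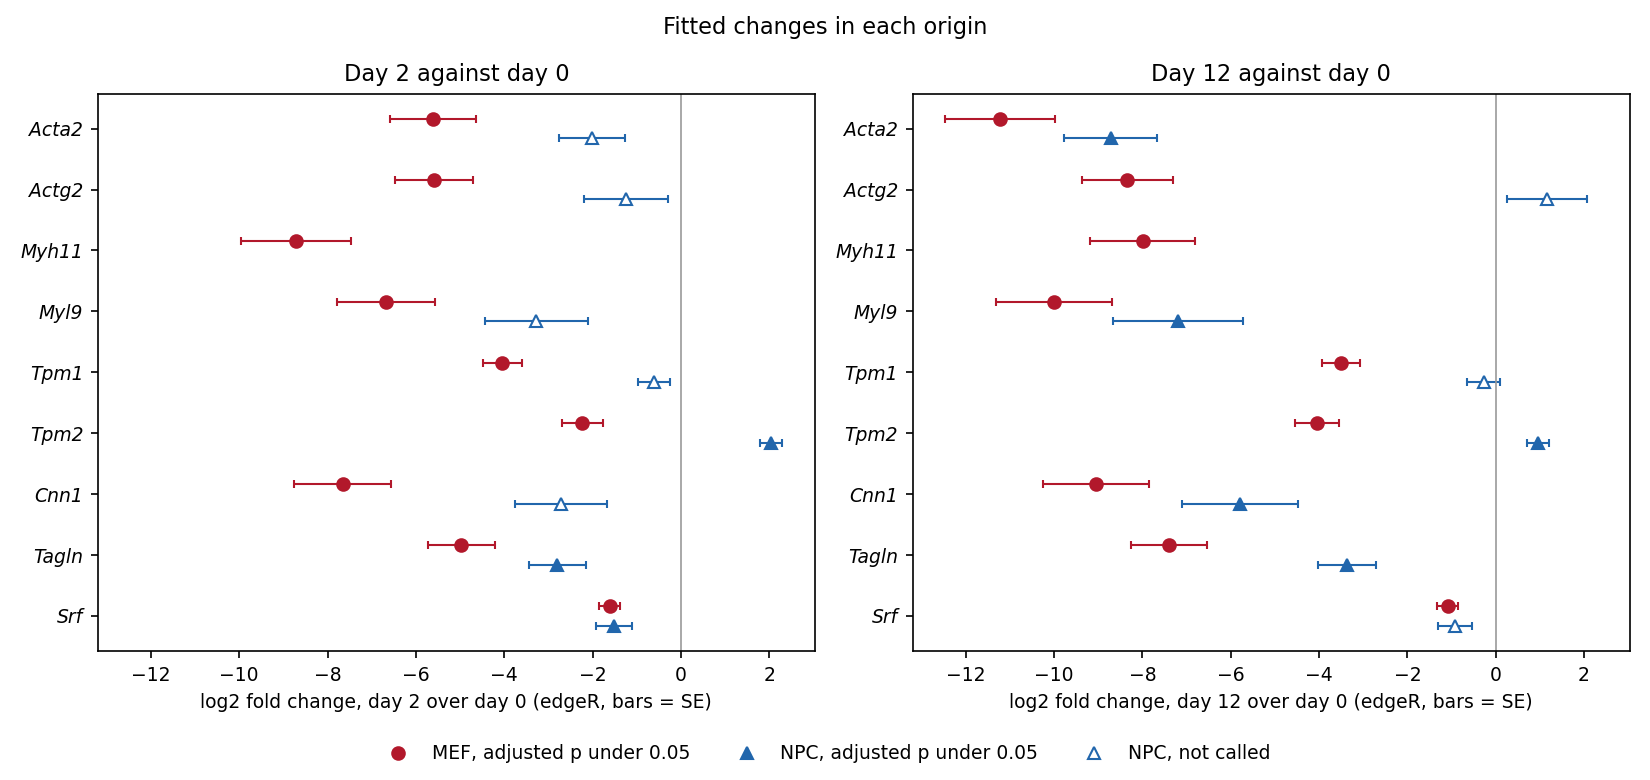
Log2 fold change of day 2 (left) and day 12 (right) over day 0 with SE bars for the 9 genes tested, in MEF cells (red circles) and NPC cells (blue triangles). Filled symbols passed adjusted p under 0.05. The red symbols lie left of 0 for 9 genes, and the blue symbols of Tpm2 lie right of 0 on both days. Myh11 was not tested in NPC cells.

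In NPC cells the set split. Acta2, Tagln, Cnn1 and Myl9 were lower by day 12, Tpm2 was higher from day 2 onwards, and Tpm1 and Actg2 did not pass the test on any day. Of the 8 genes tested, 2 were called lower (Tagln and Srf) and 1 higher (Tpm2) on day 2, beside 16.9% of all 15565 genes called lower and 17.8% called higher. On day 4 the count was 4 lower and 1 higher (19.3% and 21.1% of all genes), on day 8 4 lower and 1 higher (30.4% and 31.1%), and on day 12 4 lower and 1 higher (23.5% and 24.1%). The median log2 fold change of the 8 genes was -1.76 on day 2 and -2.15 on day 12, against 0.04 and 0.13 for all genes. Markers of other cell types moved over the same days. On day 12, 5 of 8 fibroblast markers were lower and 1 higher (median -3.73), with sums of 205 and 140 CPM, against 511 and 379 CPM on day 0. The 1 higher was Dcn, at 178 and 117 CPM on day 12, against 12.0 and 11.8 CPM on day 0. Dcn thus made up most of the day 12 sums, which understate the fall of the other markers. Of the pericyte markers 5 of 6 tested were lower (median -3.31), with sums of 66.0 and 66.5 CPM, against 224 and 238 CPM on day 0. Notch3 (101 and 105 CPM) and Mcam (73.9 and 85.2 CPM) made up most of the day 0 sums, and Rgs5 had 1.22 and 1.00 CPM. Notch3 had 35.8 CPM and Mcam 66.3 CPM in R1 ESC, and 46.2 and 112 CPM in SKM iPSC. These sums thus do not by themselves mark pericytes. Of the neural progenitor markers 4 of 5 were lower and 1 higher (median -4.81). The 1 higher was Sox2 (log2 0.87), itself an induced factor. The part of these markers in the changes of the contractile genes in NPC cells was not tested.

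Acta2 had 284 and 283 CPM on day 0 in NPC cells, 17.2 and 124 CPM on day 2, 20.8 and 8.33 CPM on day 4, 3.42 and 3.64 CPM on day 8, and 0.331 and 0.963 CPM on day 12. Every later library lay below both day 0 libraries, and days 2 and 4 overlapped. The day 2 change of -2.02 missed the threshold (adjusted p = 0.0605) with both libraries and was -4.03 (adjusted p = 0.0043) without the second day 2 library. Acta2 fell by 8.72 ± 1.06 on the log2 scale on day 12 (SE, adjusted p = 0.000123), to 0.228% of its day 0 mean.

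Myl9 had 48.3 and 60.2 CPM on day 0, 0.377 and 10.98 CPM on day 2, 5.15 and 0.758 CPM on day 4, 0.591 and 0.596 CPM on day 8, and 0.221 and 0.482 CPM on day 12. Cnn1 had 6.54 and 6.55 CPM on day 0, 0.142 and 1.87 CPM on day 2, 2.75 and 0.473 CPM on day 4, 0.722 and 0.331 CPM on day 8, and 0.110 and 0.107 CPM on day 12. All later libraries of both genes lay below day 0. Their day 2 values were -3.27 for Myl9 (adjusted p = 0.0519) and -2.71 for Cnn1 (adjusted p = 0.0682). By day 12 Myl9 fell by 7.20 ± 1.47 (SE, adjusted p = 0.00272) and Cnn1 by 5.80 ± 1.31 (adjusted p = 0.00473) on the log2 scale. The second day 2 NPC library held 7.21 times the Acta2, 13.2 times the Cnn1 and 29.1 times the Myl9 of the first. Of the 5 fibroblast markers with over 3 counts in both libraries, 4 were higher in the second, by a median of 2.27 times over the 5, and so were 5 of 7 pericyte markers. The 5 neural progenitor markers, which include the induced factor Sox2, summed to 890 CPM in the second and 730 CPM in the first. Within that list Nes (156 and 55.7 CPM) and Fabp7 (20.4 and 4.91 CPM) were higher in the second, Sox2 was at 692 and 643 CPM, and Olig2 was lower (8.76 and 11.7 CPM). The part of that library's other RNA in its contractile levels was not tested. With single libraries left out, the day 2 values ran between -7.13 and -2.32 for Myl9 and between -5.45 and -1.82 for Cnn1.

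Tagln had 188 and 193 CPM on day 0, 13.3 and 41.8 CPM on day 2, 44.0 and 29.9 CPM on day 4, 59.4 and 18.1 CPM on day 8, and 22.6 and 13.4 CPM on day 12. All later libraries lay below day 0 and their days overlapped, except that day 12 lay below day 4. Its log2 fold change was -2.80 ± 0.64 (SE, adjusted p = 0.00841) on day 2, lost without the first day 2 library (adjusted p = 0.057), and -3.37 ± 0.66 (adjusted p = 0.00211) on day 12.

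Tpm2 went the other way. It had 19.2 and 20.6 CPM on day 0 in NPC cells, 64.1 and 100.3 CPM on day 2, 94.8 and 92.0 CPM on day 4, 94.5 and 100.5 CPM on day 8, and 34.8 and 40.3 CPM on day 12. Each later library lay above both day 0 libraries, and days 2, 4 and 8 overlapped. Tpm2 rose by 2.04 ± 0.26 on the log2 scale on day 2 (SE, adjusted p = 0.000445), 2.25 ± 0.26 on day 4 (adjusted p = 0.000192) and 2.31 on day 8 (adjusted p = 7.15e-05). On day 12 the rise was 0.95 ± 0.25 (adjusted p = 0.0106), a call lost without either day 0 library or without the second day 12 library. Day 12 was below day 8 (log2 -1.36 ± 0.25, adjusted p = 0.00837), again a call lost without the second day 12 library. Tpm2 was the 1 gene of the 8 called in that comparison, where 15.9% of all genes were called lower.

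Tpm1 had 350 and 410 CPM on day 0, 149 and 356 CPM on day 2, 219 and 157 CPM on day 4, 281 and 241 CPM on day 8, and 283 and 330 CPM on day 12. Day 2 overlapped day 0 and no day passed the test. The log2 fold change was -0.28 (adjusted p = 0.562) on day 12. Actg2 had 2.17 and 1.77 CPM on day 0 and between 0.189 and 4.60 CPM later, with 4.36 and 4.28 CPM on day 12 (log2 fold change 1.17, adjusted p = 0.318). Myh11 stayed between 0.0657 and 1.32 CPM in all NPC libraries, at 1 CPM or more in 1 of them, and was not tested.

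Srf had 50.6 and 84.3 CPM on day 0 in NPC cells, 25.5 and 21.95 CPM on day 2, 26.9 and 25.7 CPM on day 4, 52.5 and 23.4 CPM on day 8, and 36.9 and 32.9 CPM on day 12. The first day 8 library reached the lower day 0 level and all others were below it. Srf fell by 1.51 ± 0.40 on the log2 scale on day 2 (SE, adjusted p = 0.0161), a call lost without the second day 0 library or either day 2 library. On day 12 the value was -0.92 (adjusted p = 0.0796). Myocd had 0 and 1 counts on day 0, 15 and 3 counts on day 2, 13 and 0 counts on day 4, 0 and 5 counts on day 8, and 2 and 1 counts on day 12.

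The 2 day 4 NPC libraries differed from each other. The feeder library held more of 9 of 9 genes with over 3 counts in both libraries than the nofeeder library. The ratio was 1.03 for Tpm2 and 1.05 for Srf, and 5.80 for Cnn1 and 6.80 for Myl9. All 8 fibroblast markers were higher in the feeder library, by 1.64 to 306 times, and their sum was 3222 CPM, against 318 CPM in the nofeeder library. Dcn alone had 402 CPM in the feeder library and 246 CPM in the nofeeder one. The macrophage markers summed to 92.0 CPM in the feeder library, against 6.91 CPM in the nofeeder one. The part of the feeder library's other RNA in the day 4 contractile levels was not tested. Acta2 was called lower on day 4 with both libraries (log2 -4.26 ± 0.82 SE, adjusted p = 0.00296), without the feeder library (-5.11, adjusted p = 0.0105) and without the nofeeder library (-3.73, adjusted p = 0.0247). Cnn1 was not called with both (-1.99, adjusted p = 0.139) and was called lower without the feeder library (-3.80, adjusted p = 0.0481). Tpm2 was higher either way, by 2.18 without the feeder library and 2.29 without the nofeeder one. Tagln and Myl9 kept their calls without the feeder library and lost them without the nofeeder library, and Srf lost its call without either.

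**Figure D3:**
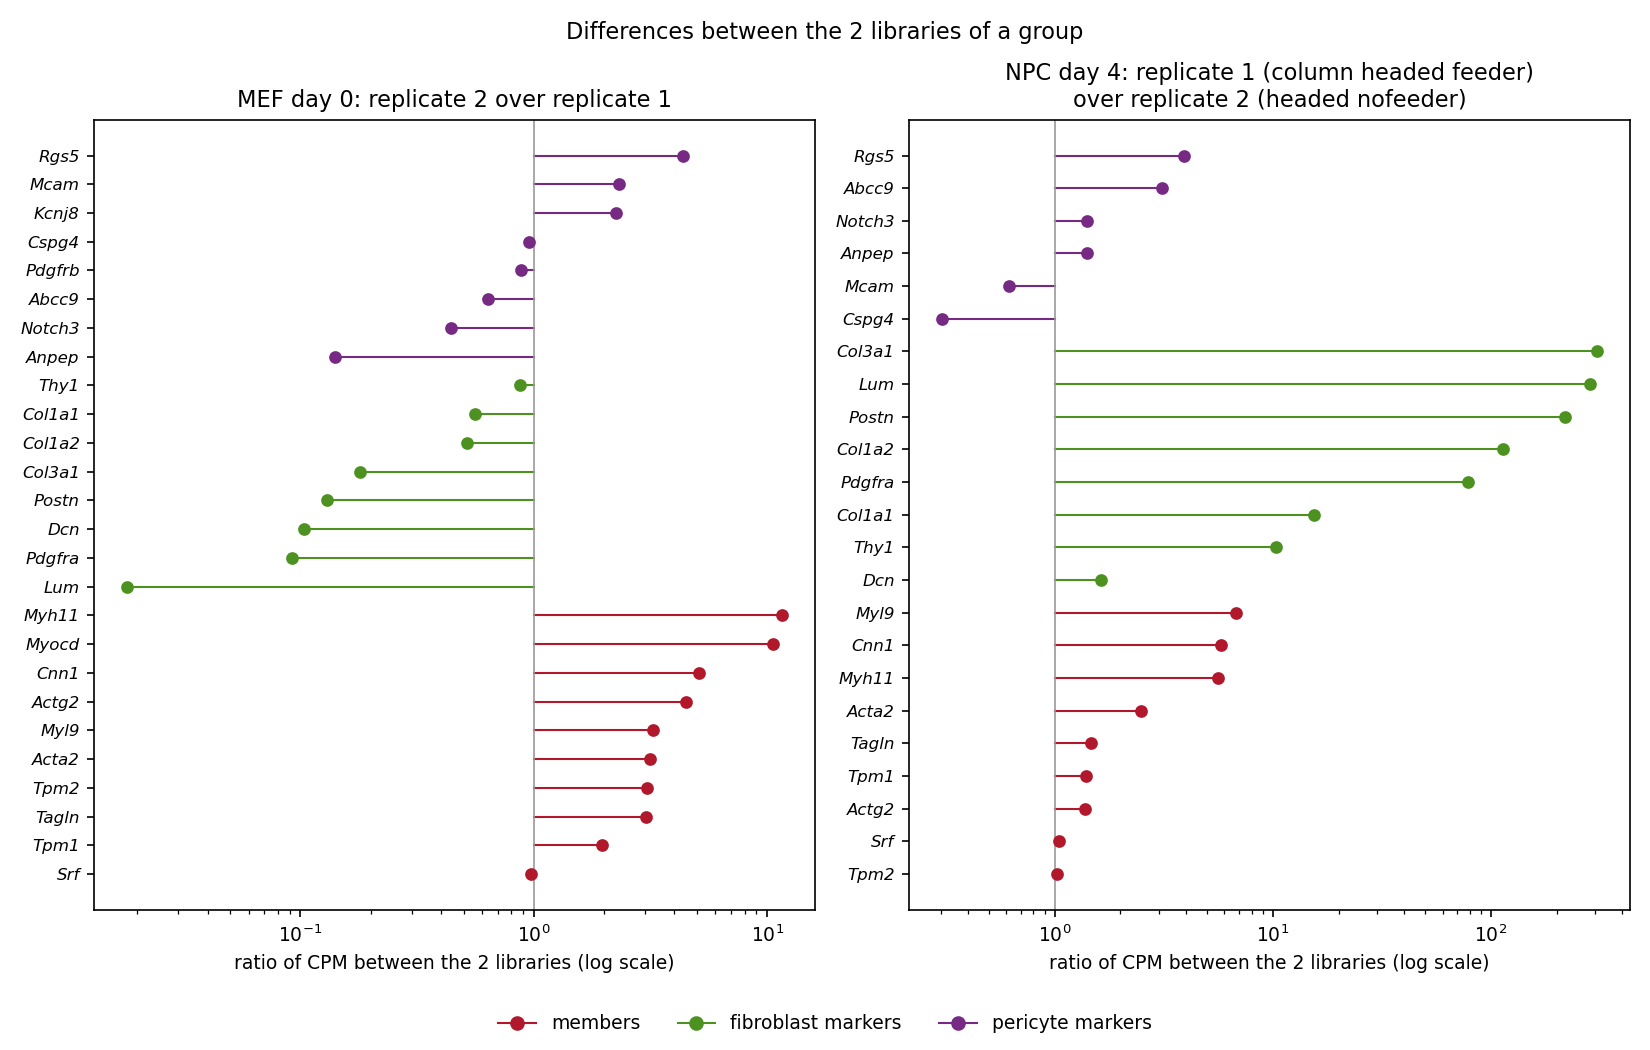
Ratio of CPM between the 2 libraries of 1 group on a log axis, replicate 2 over 1 for day 0 MEF and feeder over nofeeder for day 4 NPC, for the 10 contractile genes, fibroblast markers and pericyte markers with more than 3 counts in both. In day 0 MEF, 9 of 10 contractile genes lie above 1 and 8 of 8 fibroblast markers below it. In day 4 NPC both of these kinds lie above 1. Of the pericyte markers, 3 of 8 lie above 1 in day 0 MEF and 4 of 6 in day 4 NPC.

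The comparison of origins asks whether the cells differed at the start and whether the difference lasted. In day 0 MEF cells 8 of the 9 genes tested in the joint fit of 22 libraries were higher than in day 0 NPC cells, beside 16.3% of all 16188 genes. The log2 difference, MEF over NPC, was 5.62 ± 0.45 for Tpm2 (SE, adjusted p = 1.43e-06), 3.38 ± 0.44 for Tpm1 (adjusted p = 4.94e-05), 7.18 ± 1.05 for Actg2 (adjusted p = 0.000128) and 5.36 ± 1.07 for Cnn1 (adjusted p = 0.00137). It was 7.85 for Myh11, which passed the filter through 3 libraries, 2 of them day 0 MEF, and 3.42 for Tagln (adjusted p = 0.00282). Acta2 (3.93, adjusted p = 0.0052) and Myl9 (3.57, adjusted p = 0.0254) were also higher, calls that were lost without either NPC library and, for Myl9, without the second MEF library. Srf was not called (0.21 ± 0.33, adjusted p = 0.677), with 77.8 and 75.4 CPM in MEF cells and 50.6 and 84.3 CPM in NPC cells. On day 12, 0 of the 9 genes and 0% of all 16188 genes were called between MEF and NPC origins by edgeR. At an unadjusted p under 0.05 there were 862 genes, and DESeq2 called 64. Among the 9, Actg2 had the smallest unadjusted p (0.0322), with 0.580 and 1.21 CPM in MEF cells and 4.36 and 4.28 CPM in NPC cells.

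The difference between the origins' responses was tested as an interaction, the MEF change minus the NPC change. On day 2 it was called for 3 of 9 genes, and on day 12 for 5 of 9, each time with the more negative change in MEF cells, beside 3.98% and 6.19% of all genes. Myh11, counted on both days, reached 1 CPM in 3 of the 22 libraries, 2 of them day 0 MEF. For Myh11 the filter itself thus favoured a more negative MEF change. Tpm2, which fell in MEF cells and rose in NPC cells, differed by -4.15 ± 0.55 on day 2 (SE, log2, adjusted p = 0.000568) and -4.91 ± 0.56 on day 12 (adjusted p = 8.25e-05). Tpm1 differed by -3.33 ± 0.58 on day 2 (adjusted p = 0.00306) and -3.15 ± 0.58 on day 12 (adjusted p = 0.00202). For Acta2 the interaction missed the threshold on both days, at -3.48 ± 1.24 (adjusted p = 0.104) and -2.41 ± 1.48 (adjusted p = 0.317). For Srf it was 0.01 ± 0.46 and -0.08 ± 0.46, with neither called, which does not show that the responses of Srf were alike. The MEF response shares its day 0 libraries with the comparison of starting cells, so the larger falls in MEF cells and their higher start are not independent.

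Against the pluripotent lines, the tropomyosins and transgelin remained higher in the GFP-labelled day 12 cells. Tpm1 had 238 and 477 CPM in MEF cells of day 12 and 283 and 330 CPM in NPC cells of day 12, against 75.6 CPM in R1 ESC and 68.8 CPM in SKM iPSC. Tpm2 had 52.0 and 70.1 CPM in MEF cells and 34.8 and 40.3 CPM in NPC cells, against 7.67 CPM in R1 ESC and 5.43 CPM in SKM iPSC. All day 12 libraries of both genes lay above both lines. The log2 difference was 2.34 ± 0.41 for Tpm1 (SE, adjusted p = 0.00178) and 3.27 ± 0.49 for Tpm2 (adjusted p = 0.000731) in MEF cells, and 2.09 (adjusted p = 0.00202) and 2.55 (adjusted p = 8.66e-05) for the same genes in NPC cells.

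Tagln had 13.3 and 11.4 CPM in day 12 MEF cells and 22.6 and 13.4 CPM in day 12 NPC cells, against 2.08 and 2.58 CPM in the lines. It was higher by 2.96 in NPC cells (adjusted p = 0.007) and by 2.44 in MEF cells (adjusted p = 0.0239), the MEF call being lost whichever of the 4 libraries was left out. Actg2 was called higher in both origins (adjusted p = 0.0487 in MEF and 0.00329 in NPC), and no fold is given because the lines held 0 and 1 counts. Its MEF call was also lost whichever of the 4 libraries was left out (adjusted p = 0.0708 to 0.191) and under quantile normalization (adjusted p = 0.257). In all, 4 of 9 genes were higher in day 12 MEF cells than in the lines, beside 23.5% of all genes, and 4 of 8 in day 12 NPC cells, beside 21.4%. Acta2 was at 0.102 CPM (2 counts) in R1 ESC and 1.02 CPM (19 counts) in SKM iPSC, and its day 12 cells of either origin were not called against the lines. The starting cells lay further off: 9 of 9 genes were higher in day 0 MEF cells than in the lines (30.5% of all genes), Myh11 among them having passed the filter through those MEF libraries alone, and 7 of 8 in day 0 NPC cells (27.5%). Among these, Srf in MEF cells (0.63, adjusted p = 0.0466) lost its call without either MEF library or SKM iPSC, and Cnn1 in NPC cells without either line. Tpm1 was higher by 5.85 in day 0 MEF cells and by 2.37 in day 0 NPC cells on the log2 scale. Between days 8 and 12 of the MEF course Srf was the 1 gene called, higher by 0.99 ± 0.24 (SE, adjusted p = 0.0352) on day 12, beside 7.33% of all genes. That call was lost without either day 8 library or without the second day 12 library.

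Among 18 listed cofactors of Srf and genes of its actin-controlled arm, 17 were tested. On MEF day 2, 2 were higher and 11 lower, with a median log2 fold change of -1.67, beside 20.6% and 23.8% of all genes. Mkl1, a myocardin-related cofactor, had 31.6 and 27.1 CPM on MEF day 2, against 78.7 and 103.9 CPM on day 0 (log2 -1.78). In NPC cells it had 25.6 and 24.5 CPM on day 2, against 30.4 and 29.8 CPM on day 0 (log2 -0.27, adjusted p = 0.505). Mkl2, the other such cofactor, was called lower on NPC day 2 (log2 -1.14, adjusted p = 0.0126). Fhl2, an Srf-binding LIM protein, averaged 4.03 ± 0.386 CPM on MEF day 2 and 164 ± 53.6 CPM on day 0 (SD, n = 2 each), a log2 change of -5.49. Csrp1, a LIM protein of the actin cytoskeleton, changed by -3.68 and Prkg1, the cGMP-dependent kinase of smooth muscle relaxation, by -4.87. On NPC day 2 the count was 3 higher and 7 lower of 17 (median -0.60), beside 17.8% and 16.9% of all genes. On NPC day 12 it was 6 higher and 4 lower (median 0.23), beside 24.1% and 23.5% of all genes. With single libraries left out the calls of day 2 ran between 3 and 9, and those of day 12 between 4 and 5. Tead4, a partner of YAP, rose in both origins by day 12, by 3.26 in MEF and 5.84 in NPC cells. Elk3, an Ets partner of Srf, fell by 3.56 in each, and Mef2c had -3.40 in NPC cells. On MEF day 12 the count was 1 higher and 7 lower (median -1.02), beside 26.3% and 24.6% of all genes.

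Of 25 further smooth muscle contractile and cytoskeletal genes, 22 were tested. On MEF day 2, 1 was higher and 17 lower (median -2.60), and on MEF day 12, 2 were higher and 15 lower (median -2.53). Of all genes, 20.6% were higher and 23.8% lower on MEF day 2, and 26.3% and 24.6% on MEF day 12. On NPC day 2, 3 were higher and 8 lower of 22 (median -0.80), beside 17.8% and 16.9% of all genes. On NPC day 12, 4 were higher and 8 lower (median -0.18), beside 24.1% and 23.5%, and 7 or 8 calls in all were left when a library was left out. Mylk, the kinase that phosphorylates myosin light chains, fell in both origins: it averaged 0.482 ± 0.136 CPM on MEF day 2 and 61.0 ± 20.8 CPM on MEF day 0, and 0.630 ± 0.223 CPM on NPC day 2 and 47.0 ± 7.52 CPM on NPC day 0 (SD, n = 2 each). Lmod1, an actin nucleator of smooth muscle, fell by 8.40 on the log2 scale on MEF day 2, and the junctional protein Jph2 had -7.87. On NPC day 2 the integrin Itga8 fell by 6.27, and the small heat shock protein Hspb1 rose by 2.77. Ppp1r14a, an inhibitor of myosin phosphatase, rose by 5.86 on NPC day 12. In MEF cells it had 2.09 and 2.35 CPM on day 0 and 19.5 and 10.8 CPM on day 12.

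The close relatives of the members in other cells did not all follow them. Of 13 paralogs 12 were tested, and on MEF day 2 2 were higher and 8 lower (median -1.75). Tagln2, the transgelin of non-muscle cells, had 2009 and 1688 CPM on MEF day 2, against 376 and 521 CPM on day 0, and rose by 1.90 (adjusted p = 0.000424) while Tagln fell. It rose by 1.94 on NPC day 2 as well (adjusted p = 0.000692). Cnn2, a calponin of non-muscle cells, averaged 13.8 ± 1.91 CPM on MEF day 2 and 794 ± 143 CPM on day 0 (SD, n = 2 each), a log2 change of -6.00. Tpm4 fell by 2.36 on MEF day 2 and by 0.71 on NPC day 2, and Tpm3 had 0.56 in MEF cells (adjusted p = 0.0591). Cytoplasmic beta-actin (Actb) fell by 1.70 on MEF day 2. On the later or other comparisons the paralogs counted 2 higher and 6 lower on MEF day 12 (median -0.84), 2 and 6 on NPC day 2 (median -0.80), and 2 and 2 on NPC day 12 (median -0.40). The shares over all genes were 17.8% higher and 16.9% lower on NPC day 2 and 24.1% and 23.5% on NPC day 12. In MEF cells these shares were 20.6% and 23.8% on day 2 and 26.3% and 24.6% on day 12. Myl7, an atrial light chain, averaged 14.1 ± 13.7 CPM on MEF day 2 and 0.114 ± 0.162 CPM on MEF day 0 (SD, n = 2 each).

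**Figure D4:**
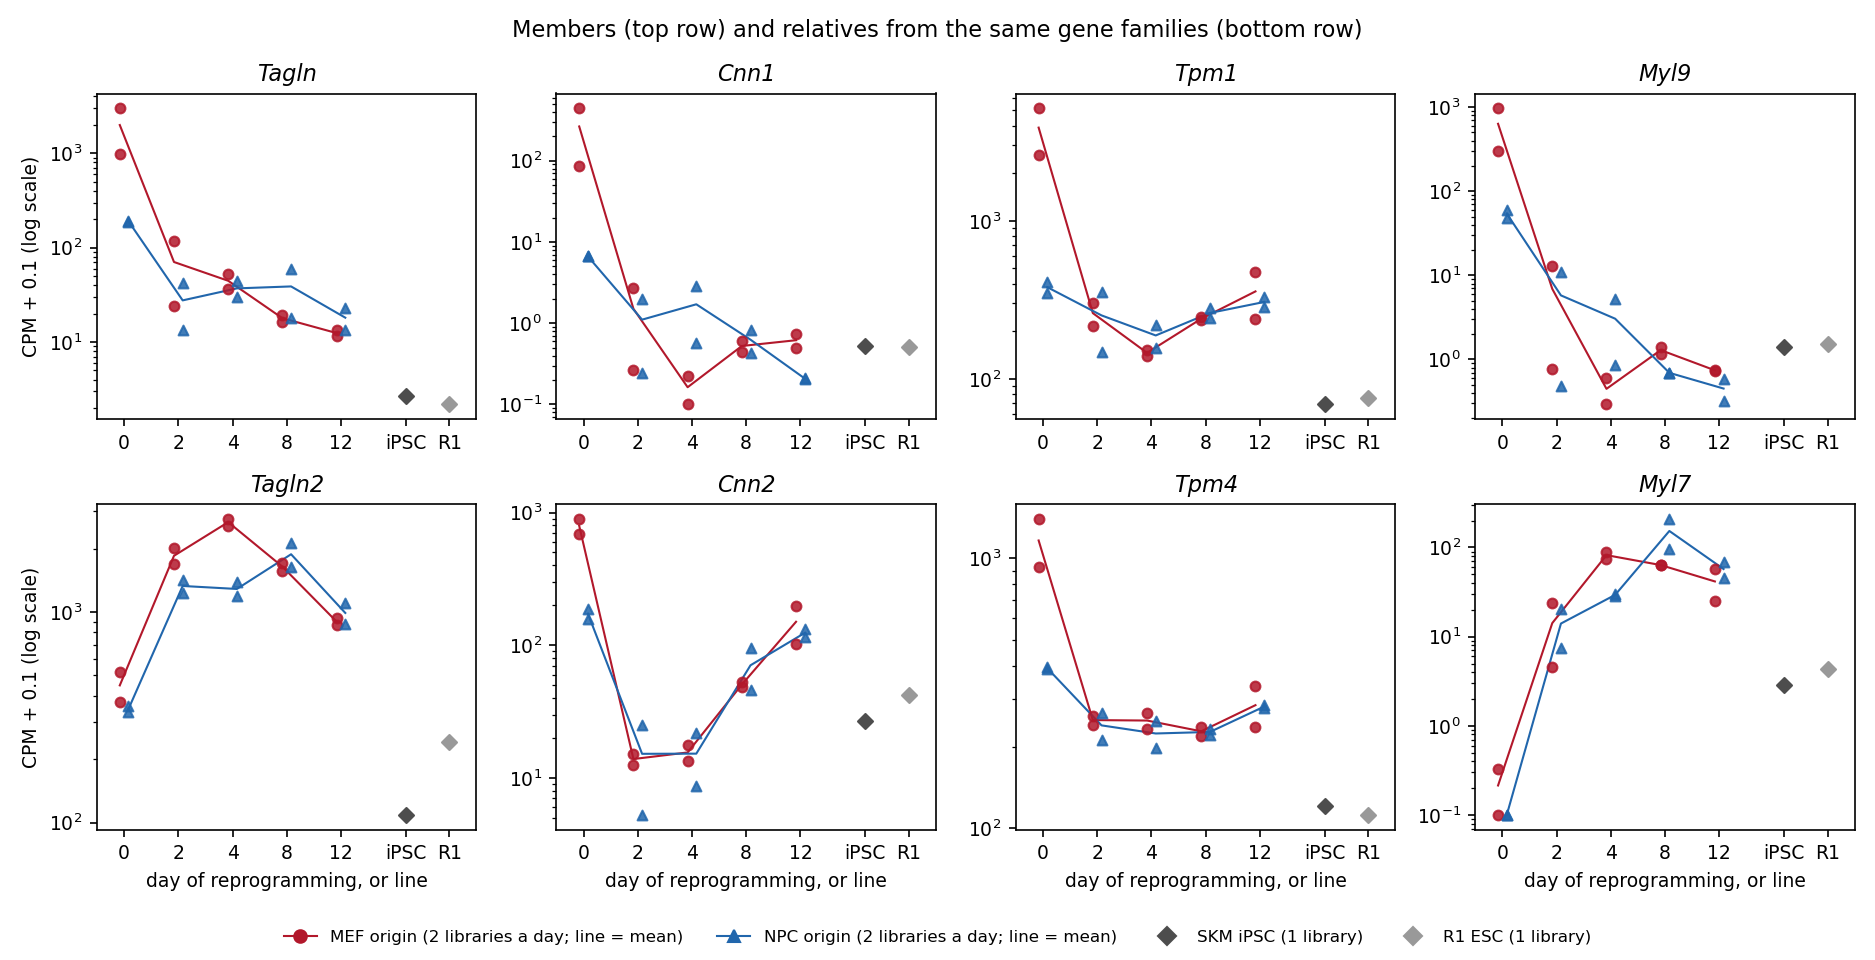
CPM plus 0.1 on a log axis by day for Tagln, Cnn1, Tpm1 and Myl9 (upper panels) above their relatives Tagln2, Cnn2, Tpm4 and Myl7 (lower panels), in MEF cells (red circles), NPC cells (blue triangles) and the lines (diamonds). Tagln2 lies above its day 0 level in both origins on day 2, while Tagln lies below it.

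Focal adhesion and stress fibre genes, through which actin bundles hold on to the matrix, fell in MEF cells. Of 21 tested, 1 was higher and 15 lower on day 2 (median -2.52), and 1 higher and 15 lower on day 12 (median -2.18). Of all genes, 20.6% were higher and 23.8% lower on MEF day 2, and 26.3% and 24.6% on MEF day 12. In NPC cells the count was 1 higher and 8 lower on day 2 (median -0.53), and 2 higher and 9 lower on day 12 (median -0.74), beside 16.9% and 23.5% of all genes lower on those days. With a library left out the day 12 calls ran between 6 and 9. Fblim1, a filamin-binding LIM protein, averaged 1.24 ± 0.192 CPM on MEF day 2 and 145 ± 39.8 CPM on day 0 (SD, n = 2 each). The integrin Itga1 fell by 7.39 and Tgfb1i1, a paxillin relative, by 5.37 on MEF day 2. Zyx (zyxin), an adhesion protein, fell by 3.05 on NPC day 2. Of the 10 listed immediate-early targets of Srf, 0 were higher and 8 lower on MEF day 2 (median -3.18), beside 23.8% of all genes lower. On NPC day 2, 0 were higher and 6 lower (median -3.49), beside 16.9% of all genes lower. With a library left out these calls ran between 5 and 9 in MEF cells and between 3 and 7 in NPC cells. By day 12 the count was 1 higher and 3 lower in MEF cells (median -0.50) and 1 higher and 0 lower in NPC cells (median -0.40), beside 24.6% and 23.5% of all genes lower. Cyr61, a matrix protein induced by growth factors, averaged 24.5 ± 0.305 CPM on MEF day 2 and 908 ± 116 CPM on day 0. Fos averaged 3.91 ± 1.28 CPM on NPC day 2 and 136 ± 142 CPM on NPC day 0 (SD, n = 2 each), where the day 0 replicates differed by more than their mean.

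Across the 22 libraries, the genes whose log2(CPM + 1) most resembled that of Acta2, among 11243 genes ranked, were Lama2 and Axl (Pearson r = 0.959 each), Hoxa5 (0.958), Thsd7a (0.956) and Tcaf2 (0.955). Within the set, Myl9 (0.941), Tagln (0.900) and Cnn1 (0.888) were most like Acta2, Tpm1 (0.786) followed, and Tpm2 (0.530) and Srf (0.352) were least like it, with Myocd at 0.557. The genes most like Srf were Ppm1m (0.870), Uap1l1 (0.867), Sppl3 (0.864), Dgat1 (0.838) and Dtx3 (0.835), and Tpm2 was at -0.04 with Srf. The libraries share origins, days and lines, so these values describe the ordering of the libraries and carry no test.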

How the data were processed

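RNA-seq measured transcripts in 22 mouse libraries, 2 per day and origin and 1 per line. Per the submitters' processing notes, FastQC and STAR 2.5.1b were used and the build was mm9; the counter, its strand setting and the annotation are not given in the sources used here. The deposited tables are named for FPKM, but their per-sample values are whole-number counts per gene made by the authors, so a count test was used. The tables also hold the authors' own log2 fold changes between days, each with an adjusted p-value deposited beside it. Their test is not given. The tables held 37999 lines for 37620 genes, and 307 genes listed more than once were kept once. Library totals, 15902838 to 20102260 counts, set the precision of low genes, so counts are given where they are few.

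Sample titles set the groups. For the NPC libraries of days 2 and 4 a second label gives an earlier stage. MEF day 4 replicates are numbered 1 and 3. The SKM iPSC column carries a 9 in its heading and was matched by elimination. Per the labels, cultured cells were extracted with a column kit and sorted cells with TRIzol, so extraction and sorting change together.

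edgeR 4.0.16 (R 4.3.3) fitted each origin with the lines, and all 22 libraries jointly for comparisons between origins, with TMM scaling, quasi-likelihood tests, Benjamini-Hochberg adjustment over all genes tested, and genes at 1 CPM or more in at least 2 libraries. There were 18 comparisons, and a call means adjusted p under 0.05. SE was computed by dividing the absolute log2 fold change by the root of F. The model was tested on simulated data. Alternatives were DESeq2 1.42.0, DESeq2-type size factors, quantile normalization with limma-voom (limma 3.58.1), no filter, the groups compared alone, a replicate block and leaving out each library. Named genes beyond the 10 are, in each of 5 lists, among the 3 of largest change with a mean of at least 5 CPM, and the 5 most like Acta2 and Srf. Mkl1, Mkl2, Tagln2, Tpm3, Tpm4 and Actb on day 2, and Ppp1r14a in MEF cells, were chosen after their values were seen. So were the single marker genes given by value, which were Col3a1, Dcn, Notch3, Mcam, Pdgfrb, Rgs5, Nes, Fabp7, Olig2 and Sox2. The 10 genes, the lists and the markers were chosen with earlier results of these data known. Peak lists were not used, since no mm9 annotation was at hand. Figures used Python 3.11.15 and matplotlib 3.10.9.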

Additional observations from a re-analysis of the deposited data

Results flagged for a closer look

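In 8 cases the response to reprogramming differed between the MEF and NPC origins by the test of the difference itself (edgeR interaction over 22 libraries, adjusted p under 0.05). Each value is the MEF change minus the NPC change on the log2 scale. On day 2 the values were -3.33 for Tpm1, -4.15 for Tpm2 and -8.20 for Myh11. On day 12 they were -3.95 for Tagln, -3.15 for Tpm1, -4.91 for Tpm2, -9.42 for Actg2 and -7.81 for Myh11. Tpm2 was called in opposite directions, with a log2 change of -2.23 in MEF cells and 2.04 in NPC cells on day 2. Myh11 was barely counted in NPC cells, with 0.180 and 0.591 CPM on day 0, so its value rests on the MEF libraries. It passed the filter through 3 libraries, 2 of them day 0 MEF, which favoured a more negative MEF change. Its day 2 adjusted p was 0.00766, against 0.139 under quantile normalization with limma-voom and 0.0737 with only the groups compared. The Tagln difference on day 12 (adjusted p = 0.0169) was lost in 6 of the fits that left out a library and under quantile normalization (adjusted p = 0.0536). Myh11 on day 12 (adjusted p = 0.00456) was lost without the second day 12 NPC library and under quantile normalization (adjusted p = 0.0959). No cause of these differences was tested.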

How the results depend on the processing

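Over 155 member fold changes, 151 kept their direction and their side of adjusted p 0.05 with DESeq2-type size factors, 139 with quantile normalization and limma-voom, 146 with DESeq2, 136 with no filter on low counts and 145 with a replicate block. With only the groups compared, 135 of 143 did, and with single libraries left out, 598 of 682. The cause of each shift was not tested.

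Counts of all genes called moved by over 1.5 times with only the groups compared, to 4505 (6773 before) on MEF day 2, 5131 (7773) on MEF day 12, 5724 (8942) for day 0 MEF over the lines, 1753 (4578) for NPC day 12 over day 8 and 748 (1304) for the day 2 interaction. MEF day 12 over day 8 gave 3079 with DESeq2 and 3436 with no filter (1743), the day 2 interaction 2081 with DESeq2, and MEF over NPC on day 12 gave 4 with quantile normalization, 64 with DESeq2 and 166 with no filter (0). Of the 10 genes, NPC day 2 gave 7 with quantile normalization, 6 with DESeq2, 6 with no filter and 5 with the replicate block (3). MEF day 12 over day 8 gave 3 with no filter (1), MEF day 12 over the lines 2 with quantile normalization (4), NPC day 12 over day 8 2 with DESeq2 and 2 with no filter (1), and MEF over NPC on day 12 1 with no filter (0). The interaction gave 9 with no filter and 5 with the replicate block on day 2 (3), and 3 with quantile normalization on day 12 (5). Among the lists, the paralogs on NPC day 12 gave 8 with quantile normalization (4). The immediate-early genes gave 5 with quantile normalization on MEF day 2 (8), 2 with only the groups compared on MEF day 12 (4), and 2 with the replicate block or only the groups compared on NPC day 12 (1).

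With single libraries left out, all genes called ranged over 0 to 2347 for MEF day 12 over day 8 (0 without the first day 8 library), 4095 to 4862 for MEF day 12 over the lines, 2242 to 4002 for NPC day 2, 3214 to 5248 for NPC day 4, 4774 to 5500 for NPC day 12, 51 to 5726 for NPC day 12 over day 8 (51 without the second day 12 library), 3945 to 4510 for NPC day 12 over the lines, 5380 to 6717 for day 0 NPC over the lines, 3211 to 5320 for MEF over NPC on day 0, 0 to 8 on day 12, 570 to 1839 for the day 2 interaction and 1379 to 3024 for the day 12 interaction. Of the 10 genes, the called ranged over 0 to 1 for MEF day 12 over day 8, 2 to 3 for MEF day 12 over the lines, 1 to 6 for NPC day 2, 2 to 5 for NPC day 4, 0 to 2 for NPC day 12 over day 8 and 3 to 7 for the day 2 interaction. Of the lists, the Srf cofactors ranged over 3 to 9 on NPC day 2 and 4 to 5 on NPC day 12, the other smooth muscle genes over 7 to 11 and 7 to 8, the paralogs over 4 to 7 on NPC day 2, the focal adhesion genes over 6 to 9 on NPC day 12, and the immediate-early genes over 5 to 9 on MEF day 2, 2 to 6 on MEF day 12, 3 to 7 on NPC day 2 and 0 to 2 on NPC day 12.

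No value that changed sign was called in either fit. With quantile normalization these were Cnn1 at -0.57 (0.32 before) and Myh11 at -0.014 (0.99) for MEF day 12 over day 8, Cnn1 at -0.73 (0.33) for MEF day 12 over the lines and Myh11 at -0.37 (0.05) for MEF over NPC on day 12. With the replicate block they were Cnn1 at -0.52 for MEF day 12 over the lines, and Tpm1 at -0.054 (0.24) and Myh11 at -1.02 for MEF over NPC on day 12. Actg2 on NPC day 4 (0.07) gave -0.0097 with DESeq2-type size factors, -0.0093 with DESeq2 and -0.016 with no filter. Srf in the day 2 interaction (0.0073) gave -0.047 with DESeq2-type size factors and with DESeq2. With single libraries left out, Actg2 ran from -0.23 to 0.29 on NPC day 4, from -1.45 to 1.30 on NPC day 8 and from -0.12 to 2.60 for NPC day 12 over day 8. In that comparison Tagln ran from -1.76 to 0.035 and Srf from -0.63 to 0.62. Acta2 ran from -0.66 to 2.60 for NPC day 12 over the lines, Srf from -0.091 to 0.68 for day 0 NPC over the lines and from -0.13 to 0.63 for MEF over NPC on day 0, and Tpm1 from -0.34 to 0.65 and Myh11 from -0.39 to 0.70 for MEF over NPC on day 12. In the interactions Myl9 ran from -6.64 to 0.55 on day 2, and Srf from -0.41 to 0.34 on day 2 and from -0.50 to 0.25 on day 12.

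Same-numbered libraries deviated together with r over 0.1 in 7 of 16 pairs of groups (r between -0.12 and 0.38), so not every pair passed and the numbers were not taken as a pairing. The r was 0.18 to 0.31 among MEF days 0, 2 and 12 and 0.21 to 0.38 among NPC days 2, 8 and 12. Whether some same-numbered libraries share a batch was not tested, and the labels name none. With that block Srf on MEF day 4 was at -0.66 (adjusted p = 0.112) and Myl9 in day 0 MEF over NPC had adjusted p = 0.104. Quantile normalization moved the share of called genes that were higher to 51.8% from 64.1% for MEF day 12 over day 8 and to 46.6% from 56.7% for MEF day 12 over the lines, and moved the median of all genes by up to 0.188 on the log2 scale. Peaks near the 10 genes, under either overlap or threshold, were not run, since no mm9 annotation was at hand. Depth limits Myocd, with 0 to 47 counts per library, Myh11 in NPC cells, and Cnn1 after day 0, with 0 to 56 counts per library.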

Other observations

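In the authors' deposited table of fold changes against day 0, 44 of the 54 member changes called here on days 2 to 12 had an adjusted p under 0.05, and 44 of 44 had the same sign. The other 10 were Srf on 5 occasions, Tpm2 on 3, and Myl9 and Tagln once each. Srf on MEF day 2 had a log2 fold change of -1.49 with adjusted p = 0.746 in the authors' deposited table, and -1.61 with adjusted p = 0.00083 in the edgeR fit. Tpm2 on NPC day 2 had 2.04 with adjusted p = 0.00719 in the authors' deposited table. Myocd on MEF day 2, which was not tested here, had -2.83 with adjusted p = 0.606 in the authors' deposited table.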
